A study of Mus musculus with 10 samples.

Results

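The genes described here are 32 genes of cholesterol metabolism, measured by RNA sequencing in mouse retina. They were chosen as a listed pathway: 7 enzymes of the mevalonate arm, 11 enzymes from squalene to sterols, 5 regulators of SREBP processing, 4 genes of sterol transport and lysosomal release and 5 genes of efflux and elimination. All 32 were present among the 11702 genes of the table, and all 32 passed the filter on low counts in each comparison. The study asked whether halofantrine, an antimalarial drug and a cationic amphiphile, acts on retinal degeneration, and the rd10 mouse was one of its models.

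All 10 libraries came from retinas of female mice that received 1 μL into the vitreous at P10 and again at P24 and were collected at P36. Libraries W1 to W4 came from wild-type (WT) mice given the vehicle DMSO, D1 to D3 from rd10 mice given DMSO, and H1 to H3 from rd10 mice given 20 μM halofantrine. The rd10 mouse has a mutation in Pde6b, which encodes part of the phosphodiesterase of rods, and its rods die early in life. The rd10 animals were bred from the B6.CXB1-Pde6brd10/J strain, and the strain of the WT animals is not given in the sources used here. By label, batch 2 held D3, H2 and H3 and batch 1 held the other 7 libraries, and what a batch was is not stated. No WT library was in batch 2. The library names also carry set names, whose meaning is not stated: set1 for W1 to W3, set1_5 for W4, set2 for D1, D2 and H1, last_rd10 for H2 and H3 and final_rd10 for D3. No WT library shares a set name with an rd10 library, also within batch 1, so set and genotype cannot be told apart, and within batch 2 H2 and H3 carry another set name than D3.

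Cells make cholesterol from acetyl-CoA through mevalonate, farnesyl pyrophosphate, squalene and lanosterol. When membrane sterol is low, Scap escorts SREBP proteins from the endoplasmic reticulum to the Golgi, where they are cleaved and go on to switch on the enzymes of synthesis, and Insig proteins hold them back when sterol is plentiful. Oxysterols activate LXR receptors, which switch on the ABC transporters and Apoe that carry cholesterol out of cells, and in the retina Muller glia are a main source of Apoe. Cholesterol taken up in lipoproteins is freed in the lysosome by Lipa and passed on by Npc2 and Npc1, and cationic amphiphilic drugs are known to collect in lysosomes.

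Libraries held 15512212 to 38160436 gene counts with D3 the shallowest, and the members were covered by between 177 counts (Mvd in D3) and 39554 counts (Apoe in H2). Pde6b was at 2699 to 2855 CPM (read counts scaled by library total and TMM factor) in W1 to W3 and at 93.1 CPM in W4, below the 125.0 to 387 CPM of the rd10 libraries. W4 therefore went against its label, and fold changes against WT are given without the library labelled WT W4 and as labelled. Summed over 12 rod markers, expression was 82730 to 86880 CPM in W1 to W3 and 3593 CPM in W4. It was 4468 to 4832 CPM in the rd10 libraries of batch 1 and 8810 to 12470 CPM in those of batch 2. Whole retina was sequenced, so fewer cells of a type and less RNA per cell cannot be told apart.

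The promoters of 5 members are shown because 4 of them (Hmgcs1, Idi1, Nsdhl and Sc5d) belong to the synthesis enzymes that had lower levels in 2 halofantrine libraries, and because Lipa was among the members with the highest values against WT. Each line gives the 140 bases before the RefSeq start (mouse GRCm38.p6), 5′ to 3′ on the gene's strand. Capitals mark TCACNCCAC (SREBP site), CCAAT (NF-Y) or CACGTG (E-box) on either strand, so CCAAT also appears as ATTGG.
Hmgcs1, chr13:119690211-119690350, plus strand: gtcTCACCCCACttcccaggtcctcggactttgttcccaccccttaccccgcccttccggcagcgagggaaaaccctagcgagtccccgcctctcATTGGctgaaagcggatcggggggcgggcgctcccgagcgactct
Idi1, chr13:8885466-8885605, plus strand: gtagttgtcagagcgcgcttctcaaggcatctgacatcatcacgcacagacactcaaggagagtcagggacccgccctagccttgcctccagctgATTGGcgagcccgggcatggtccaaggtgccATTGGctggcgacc
Nsdhl, chrX:72918381-72918520, plus strand: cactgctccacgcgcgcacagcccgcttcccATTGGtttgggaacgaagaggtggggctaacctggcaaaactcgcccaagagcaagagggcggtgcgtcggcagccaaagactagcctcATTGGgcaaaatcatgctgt
Sc5d, chr9:42264301-42264440, minus strand: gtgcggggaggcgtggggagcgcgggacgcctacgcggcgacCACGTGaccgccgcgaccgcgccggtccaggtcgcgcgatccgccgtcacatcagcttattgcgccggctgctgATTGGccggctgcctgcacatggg
Lipa, chr19:34527475-34527614, minus strand: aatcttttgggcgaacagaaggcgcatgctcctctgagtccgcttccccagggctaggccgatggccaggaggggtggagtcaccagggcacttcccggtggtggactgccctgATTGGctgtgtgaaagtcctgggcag

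The window searched ran from 250 bases before to 50 bases after each start, and 26 of the 32 members had one in the RefSeq table. CCAAT was found in 21 of these 26 members (80.77%) and in 41.06% of all 27025 genes of the table. CACGTG was found in 6 members (23.08%, against 8.09% of genes). TCACNCCAC was found in 1 member, Hmgcs1, against 1.44% of genes. The 3 letter strings do not overlap in the stretches printed. The printed members are not all those that fit the reasons given for printing. Acat2, also lower in H2 and H3, and Apoe, with the highest value against WT, held none of the 3 strings in any window. A match describes these letters only, and binding was not measured.

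The first comparison asked how the cholesterol genes differed between rd10 and WT retina under vehicle. With all 7 libraries as labelled, edgeR called 0 of the 32 members and 0% of the 11698 genes tested (adjusted p under 0.05). At an unadjusted p under 0.05, 4 members (Mvd, Idi1, Msmo1 and Abcg1, all lower in rd10) passed against 26.6% of all genes, and DESeq2 and limma-voom called 0 members. Without W4, edgeR called 14 members, 6 higher in rd10 and 8 lower. The background of that fit was 32.3% of 11696 genes called higher, 29.9% called lower and 62.2% called either way. The share of members called was therefore below that of all genes, and the median log2 fold change was -0.05 over the members and -0.01 over all genes. Within the list, the genes called higher were 2 regulators (Insig2 and Srebf2), 2 lysosomal genes (Npc2 and Lipa) and 2 efflux genes (Apoe and Abca1). The synthesis enzymes called (Mvd, Tm7sf2, Msmo1 and Dhcr7) were all lower, as were Scap, Npc1, Abcg1 and Nr1h2.

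**Figure D1:**
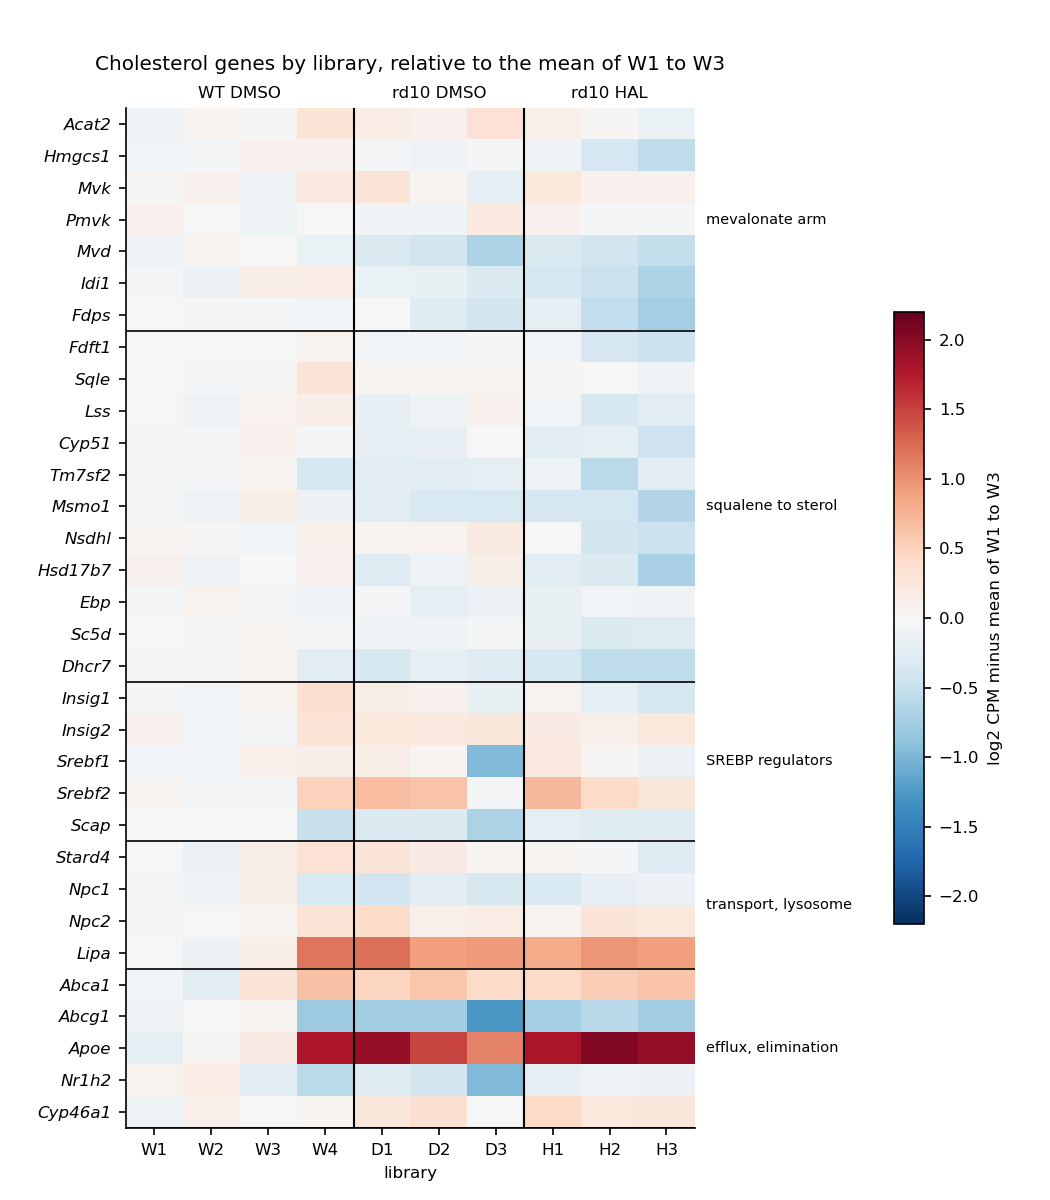
Heat map of the 32 members (rows, grouped by role) in the 10 libraries (columns, grouped by label), coloured by log2 CPM minus the mean of W1 to W3. Lipa, Apoe and Abcg1 set W4 and the 6 rd10 libraries apart from W1 to W3, and most synthesis rows are darkest blue in H2 or H3.

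In the mevalonate arm, 1 of 7 enzymes was called without W4, and none was called as labelled. Mvd, the decarboxylase that yields isopentenyl pyrophosphate, was at 16.7, 18.3, 17.8 and 15.8 CPM in W1 to W4 and at 14.1, 13.3 and 10.9 CPM in D1 to D3. All rd10 DMSO libraries lay below all WT libraries, W4 included. Mvd fell by 0.45 ± 0.12 (SE) on the log2 scale without W4 (adjusted p = 0.0111), and its log2 fold change was -0.43 as labelled (adjusted p = 0.187). Idi1, the isomerase that follows, was at 49.1, 46.0, 55.8 and 55.9 CPM in WT and at 45.3, 44.7 and 40.5 CPM in rd10 DMSO. These groups did not overlap either, but the log2 fold change of -0.20 ± 0.09 without W4 missed the threshold (adjusted p = 0.087), as did the -0.25 as labelled (adjusted p = 0.187).

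Hmgcs1, which makes the HMG-CoA of the pathway, was at 164.5, 166.9, 181.5 and 181.7 CPM in WT and at 165.2, 161.9 and 168.0 CPM in rd10 DMSO, with overlapping groups. Its log2 fold change was -0.04 ± 0.06 without W4 (adjusted p = 0.584) and -0.07 as labelled (adjusted p = 0.503). Fdps, the farnesyl pyrophosphate synthase, had -0.20 ± 0.10 (adjusted p = 0.13) and Acat2, the cytosolic thiolase that opens the route, 0.21 ± 0.08 (adjusted p = 0.0644), both without W4. As labelled these values were -0.19 and 0.11. The mevalonate kinases Mvk and Pmvk had values of 0.07 and 0.03. For Mvk the sign turned with the library labelled WT W4 and with the scaling, and no difference was resolved.

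From squalene to sterols, 3 of 11 enzymes were called lower in rd10 without W4 and 0 higher. Msmo1, a methyl oxidase that acts on lanosterol-derived sterols, was at 50.9, 48.5, 56.7 and 47.7 CPM in W1 to W4. In D1 to D3 it was at 43.5, 40.9 and 40.9 CPM, below every WT library. It fell by 0.31 ± 0.08 on the log2 scale without W4 (adjusted p = 0.00937), and the value as labelled was -0.29 (adjusted p = 0.187). Dhcr7, whose product step yields cholesterol from 7-dehydrocholesterol, stood at 36.4, 36.8 and 39.9 CPM in W1 to W3 and at 29.4, 32.9 and 30.9 CPM in rd10 DMSO. W4, at 32.2 CPM, lay inside the rd10 range, and Dhcr7 fell by 0.27 ± 0.08 without it (adjusted p = 0.0173; as labelled -0.23, adjusted p = 0.189).

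Tm7sf2, a sterol C14 reductase, stood at 25.3, 25.2 and 26.8 CPM in W1 to W3, at 19.8 CPM in W4 and at 21.6, 22.1 and 22.3 CPM in rd10 DMSO. It fell by 0.22 ± 0.07 without W4 (adjusted p = 0.0251; as labelled -0.14, adjusted p = 0.397). The other 8 enzymes (Fdft1, Sqle, Lss, Cyp51, Nsdhl, Hsd17b7, Ebp and Sc5d) ranged from -0.12 for Cyp51 to 0.12 for Nsdhl in log2 fold change, with adjusted p from 0.197 upwards. As labelled they ranged from -0.12 for Cyp51 to 0.08 for Nsdhl, with adjusted p from 0.312 upwards. Fdft1, the squalene synthase that commits the pathway to sterols, shows how close the groups were: 84.1, 84.8, 84.8 and 89.7 CPM in WT and 80.8, 81.3 and 83.5 CPM in rd10 DMSO.

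The small decreases of synthesis enzymes depended on the scaling. Without W4, scaling by library size alone (an alternative chosen after seeing the data) moved the median of all genes to 0.19, and no synthesis enzyme was then called lower, while Hmgcs1 (0.17), Fdft1 (0.17), Sqle (0.27), Nsdhl (0.33) and Acat2 (0.41) were called higher. That fit called 46.2% of all genes higher and 17.4% lower. Mvd (-0.24), Msmo1 (-0.10), Dhcr7 (-0.06) and Tm7sf2 (-0.01) had the lowest values of the synthesis enzymes there too. Of the 14 members called, 7 were called in the same direction under that scaling, namely all 6 higher ones and Abcg1. Within batch 1 alone (W1 to W3 against D1 and D2, also chosen after seeing the data) all 14 were called in the same direction, among 17 members called, beside 36.5% of all genes called higher and 35.9% lower.

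**Figure D2:**
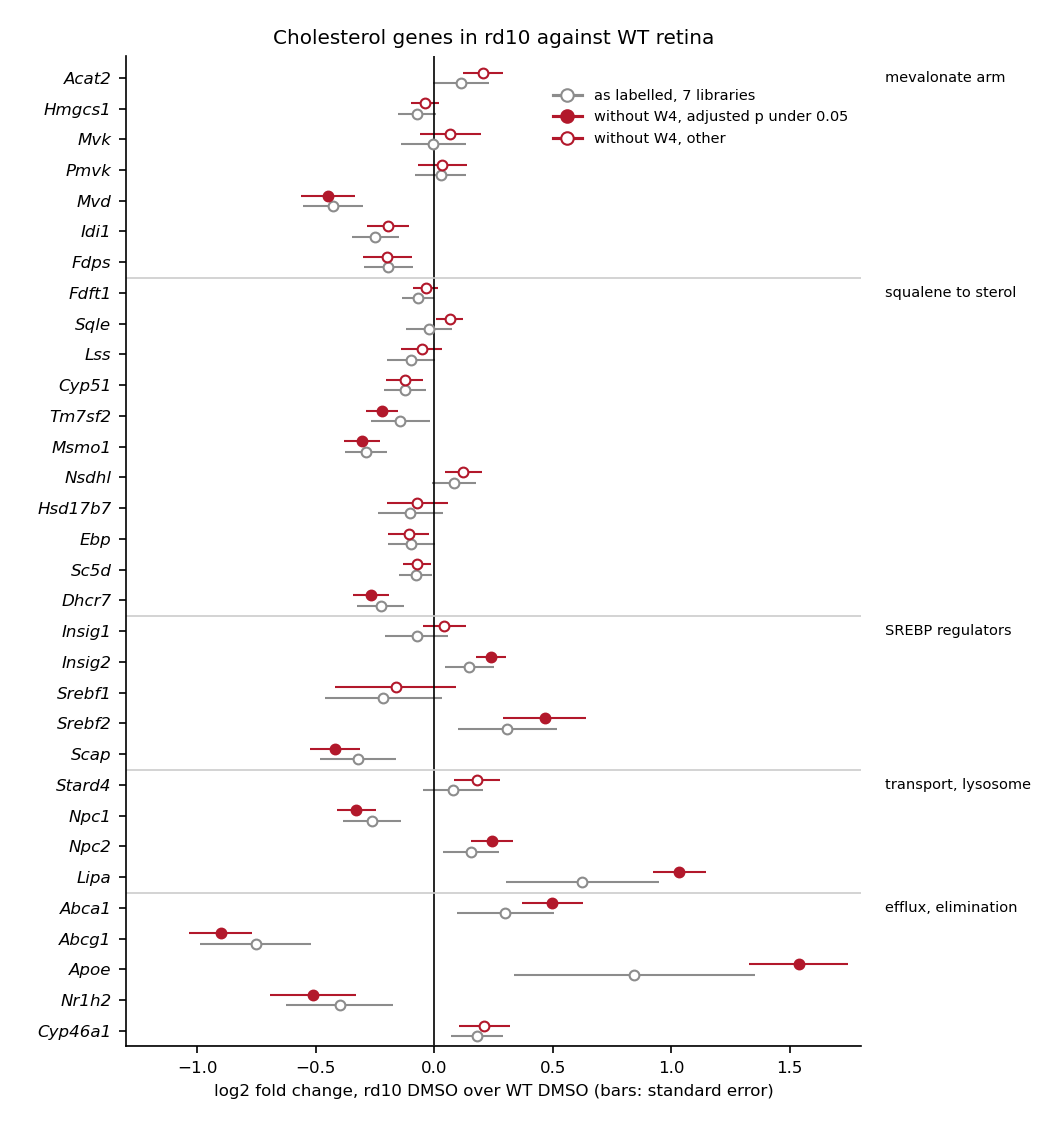
Log2 fold change of each member in rd10 DMSO over WT DMSO (x axis, bars are standard errors), as labelled (grey, 7 libraries) and without W4 (red, 6 libraries, filled where the adjusted p is under 0.05). Lipa and Apoe lie farthest right and Abcg1 farthest left, and leaving out W4 moved Apoe from 0.84 to 1.54.

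Among the regulators, 3 of 5 were called without W4. Srebf2, the transcription factor that drives sterol synthesis, stood at 165.2, 156.4 and 157.4 CPM in W1 to W3 and at 226 CPM in W4. In rd10 DMSO it was at 254.7, 246.6 and 154.6 CPM, so D1 and D2 were higher than W1 to W3 and D3 was not. The log2 fold change was 0.47 ± 0.17 without W4 (adjusted p = 0.0482) and 0.66 within batch 1 (adjusted p = 5.28e-06). As labelled it was 0.31 (adjusted p = 0.296).

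Srebf1, whose products drive fatty acid synthesis most, was at 84.3, 83.8, 94.8 and 95.8 CPM in WT and at 96.7, 90.9 and 44.5 CPM in rd10 DMSO. Only D3 stood apart, and the log2 fold change of -0.16 ± 0.26 without W4 turned to 0.11 within batch 1 (adjusted p = 0.603 and 0.178). As labelled it was -0.21 (adjusted p = 0.523). Scap, the escort of SREBP, stood at 155.4, 158.7 and 157.8 CPM in W1 to W3, at 111 CPM in W4 and at 126.0, 127.5 and 96.6 CPM in rd10 DMSO. It fell by 0.42 ± 0.10 without W4 (adjusted p = 0.00998; as labelled -0.32, adjusted p = 0.203). Scap was below W1 to W3 in every rd10 library and in W4.

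The Insig proteins, which retain Scap in the endoplasmic reticulum, were at 83.7 to 92.2 CPM (Insig1) and 44.0 to 48.5 CPM (Insig2) in W1 to W3. Insig2 was at 53.9, 52.8 and 54.0 CPM in rd10 DMSO, above W1 to W3 and below the 56.3 CPM of W4. It rose by 0.24 ± 0.06 without W4 (adjusted p = 0.0118; as labelled 0.15, adjusted p = 0.306). Insig1, itself an SREBP target, had a log2 fold change of 0.04 ± 0.09 without W4 (adjusted p = 0.695) and -0.07 as labelled (adjusted p = 0.684).

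In sterol transport and the lysosome, Lipa gave the clearest separation. Lipa, the lysosomal acid lipase that frees cholesterol from its esters, stood at 17.5, 16.0 and 19.4 CPM in W1 to W3 (17.6 ± 1.71, SD, n = 3). It was at 40.8, 33.0 and 33.7 CPM in D1 to D3 (35.8 ± 4.28, SD, n = 3) and at 39.8 CPM in W4. It rose by 1.03 ± 0.11 on the log2 scale without W4 (adjusted p = 0.000195), and as labelled its log2 fold change was 0.62 ± 0.32 (adjusted p = 0.21). No rd10 library overlapped W1 to W3, and W4 lay within the rd10 range.

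Npc2, which takes cholesterol from the lysosome's lumen to Npc1, stood at 37.7, 38.7 and 39.7 CPM in W1 to W3 and at 51.4, 42.1 and 43.2 CPM in rd10 DMSO. It rose by 0.25 ± 0.09 without W4 (adjusted p = 0.0437; as labelled 0.15, adjusted p = 0.343). Npc1, the membrane protein that exports it, went the other way, with 105.7, 100.3 and 117.7 CPM in W1 to W3 and 80.0, 91.7 and 83.8 CPM in rd10 DMSO. It fell by 0.33 ± 0.08 without W4 (adjusted p = 0.00956; as labelled -0.26, adjusted p = 0.193), and W4 was at 84.8 CPM. Stard4, a cytosolic sterol carrier, was at 30.4 to 36.6 CPM in W1 to W3 and 34.3 to 40.6 CPM in rd10 DMSO (log2 fold change 0.18 ± 0.10 without W4, adjusted p = 0.136; as labelled 0.08, adjusted p = 0.64).

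The efflux genes held both the highest and the lowest fold change of the list. Apoe, the main apolipoprotein of neural tissue, stood at 243, 285 and 319 CPM in W1 to W3 (282 ± 38.1, SD, n = 3) and at 963 CPM in W4. In D1 to D3 it was at 1060, 786 and 595 CPM (814 ± 234, SD, n = 3). All rd10 DMSO libraries exceeded W1 to W3, and Apoe rose by 1.54 ± 0.21 on the log2 scale without W4 (adjusted p = 0.000517). As labelled its log2 fold change was 0.84 ± 0.51 (adjusted p = 0.252). Abca1, the transporter that lipidates apolipoproteins, stood at 50.2, 44.4 and 63.4 CPM in W1 to W3 and at 72.2, 79.2 and 69.5 CPM in D1 to D3, with no overlap. It rose by 0.50 ± 0.13 without W4 (adjusted p = 0.0113; as labelled 0.30, adjusted p = 0.296).

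Abcg1, which passes cholesterol to lipidated particles and is, like Abca1, a known LXR target, moved the opposite way. It stood at 128.0, 135.4 and 140.0 CPM in W1 to W3 (134.5 ± 6.05, SD, n = 3), at 76.8 CPM in W4 and at 79.1, 79.2 and 55.5 CPM in D1 to D3 (71.3 ± 13.6, SD, n = 3). Abcg1 fell by 0.90 ± 0.13 without W4 (adjusted p = 0.000794), and as labelled its log2 fold change was -0.75 ± 0.23 (adjusted p = 0.187). Nr1h2, which encodes LXR-beta, stood at 60.1, 63.9 and 48.9 CPM in W1 to W3 and at 47.4, 43.4 and 29.1 CPM in rd10 DMSO. It fell by 0.51 ± 0.18 (adjusted p = 0.0409; as labelled -0.40, adjusted p = 0.234), with D3 the lowest library. Cyp46a1, the neuronal 24-hydroxylase that turns cholesterol into an exportable oxysterol, was at 17.0 to 19.9 CPM and 18.4 to 23.0 CPM (log2 fold change 0.21 ± 0.11 without W4, adjusted p = 0.123; as labelled 0.18, adjusted p = 0.259).

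Cell type markers moved with these genes. Without W4, edgeR called 12 of 12 rod markers lower (median log2 fold change -3.21), 9 of 9 Muller glia markers higher (0.95), 7 of 7 gliosis markers higher (3.32) and 8 of 8 measured microglia markers higher (2.39). As labelled none of these markers was called, and the medians were -2.83, 0.66, 1.69 and 1.39. The summed Muller markers were at 3785 to 3977 CPM in W1 to W3, 6850 CPM in W4 and 5866 to 6741 CPM in rd10 DMSO. The summed microglia markers were at 54.4 to 61.5 CPM, 231 CPM and 226 to 259 CPM, and 6 further microglia markers, Aif1, Trem2 and P2ry12 among them, were not in the gene table. Markers of other retinal cells were called higher too, namely 7 of 7 amacrine, 4 of 8 bipolar (1 lower), 7 of 8 ganglion cell, 3 of 5 measured endothelial and 2 of 6 measured RPE markers. Of 9 cone markers, 3 were called higher and 2 lower. As labelled none of these was called either. The amacrine sums were at 1008 to 1044 CPM in W1 to W3 and 1481 to 1668 CPM in rd10 DMSO, and the bipolar sums at 1619 to 1706 CPM and 2371 to 2783 CPM. The RPE sums were at 60.3, 48.2 and 294 CPM in W1 to W3 and at 164 to 487 CPM in rd10 DMSO, which overlapped. Apoe, Lipa and Abca1 rose beside these lists, and the part of cell composition in those changes was not tested.

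**Figure D3:**
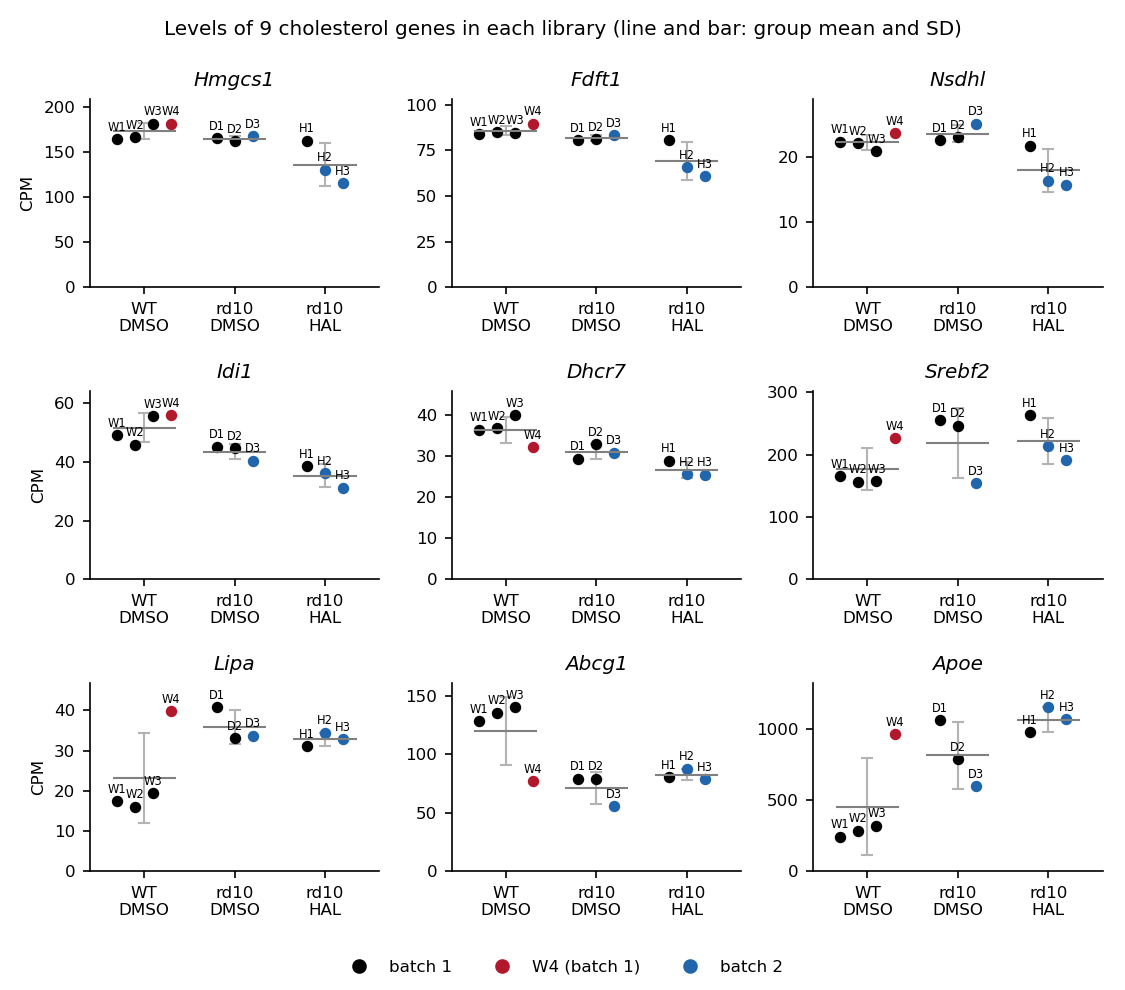
CPM of 9 members in each library (points, labelled by library), with group mean (line) and SD (bar) and W4 counted in the WT group as labelled; black points are batch 1, red W4 and blue batch 2. Lipa, Abcg1 and Apoe place W4 among the rd10 libraries, and Hmgcs1, Fdft1 and Nsdhl are lower in H2 and H3 than in H1 and the DMSO libraries.

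Neighbouring pathways were read from lists chosen with earlier results known, in the fit without W4. As labelled 0 of their genes were called, and the adjusted p of those named was 0.187 or more. The gene named for a direction is the called one with the smallest p, whatever its fold change. Of 10 measured genes of the isoprenoid branch, 4 were called lower and 0 higher, among them Icmt, the methyltransferase that finishes prenylated proteins (log2 fold change -1.61 ± 0.10, adjusted p = 2.19e-05). Of 10 genes of SREBP processing, 3 were called higher and 4 lower. Those called higher included Pgrmc1 (0.32), a sterol-binding membrane protein. Of 14 genes of SREBP-driven fatty acid synthesis, 7 were called higher, with Fads1, a fatty acid desaturase, at 0.84, and 4 lower, with malic enzyme Me1 at -0.82.

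Of 10 LXR partners and targets, 4 were called higher and 4 lower. Arl4c, an LXR target, was at 0.56 and Abcg4, a neuronal sterol transporter related to Abcg1, at -0.95. Of 9 lipoprotein uptake genes, 6 were called higher and 3 lower. Clu, the apolipoprotein clusterin, had the value 1.85 (adjusted p = 2.52e-05) and Scarb1, the HDL receptor, -1.16 (adjusted p = 1.9e-05). Of 16 genes of sterol transfer, 5 were called higher (Osbpl6 at 0.85) and 4 lower (Osbpl8 at -0.89), both of the oxysterol-binding protein family. Of 3 oxysterol enzymes, 2 were called higher, with the sterol 27-hydroxylase Cyp27a1 at 0.94, and of 16 lysosomal lipid genes 9 were called higher, with Scarb2 at 0.56, and 3 lower, with Cln3 at -0.51. In a fit with 62.2% of genes called, these counts describe the lists and set none of them apart. For halofantrine, no gene of these lists was called, and the adjusted p of the genes just named was 0.883 or more.

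The main comparison of the study, halofantrine against DMSO in rd10, called 0 of the 32 members and 0% of 11692 genes with edgeR, and the smallest adjusted p of any member was 0.883. DESeq2 called 3 genes and 0 members, and limma-voom called 0 members. At an unadjusted p under 0.05, 4 members were lower (Idi1, Nsdhl, Sc5d and Dhcr7) and 0 higher, beside 2.22% of all genes lower and 2.54% higher. That count moved with single libraries. It was 0 without H3 (185 of all genes), 1 without H2 (199 genes), 1 without D2 (610 genes), 4 without D1 (756 genes), 6 without D3 (858 genes) and 9 without H1 (706 genes). The median log2 fold change was -0.07 over the members and -0.0045 over all genes.

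By sign alone, with no member called, 10 of 11 enzymes from squalene to sterols and 5 of 7 of the mevalonate arm had negative values, and 5 of 5 efflux genes had positive ones. The medians were -0.16, -0.19 and 0.20. The efflux values depended on D3. Without it they were -0.0074 for Abca1, 0.02 for Cyp46a1, 0.06 for Abcg1, 0.20 for Nr1h2 and 0.21 for Apoe. In 7 members all 3 halofantrine libraries lay below all 3 DMSO libraries (Idi1, Fdft1, Sqle, Msmo1, Nsdhl, Sc5d and Dhcr7), beside 6.18% of all genes. In 2 members, Scap and Nr1h2, they lay above, beside 6.91% of all genes.

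Nsdhl, a sterol decarboxylase encoded on the X chromosome, had the lowest value. It was at 22.6, 23.0 and 25.1 CPM in D1 to D3 and at 21.7, 16.4 and 15.7 CPM in H1 to H3 (log2 fold change -0.40 ± 0.13, adjusted p = 0.883). H1 was close to the DMSO libraries and H2 and H3 were lower. Idi1 was at 45.3, 44.7 and 40.5 CPM against 38.7, 36.3 and 31.3 CPM (-0.30 ± 0.10), and here H1 was also below the DMSO libraries. Dhcr7 was at 29.4, 32.9 and 30.9 CPM against 28.9, 25.6 and 25.5 CPM (-0.22 ± 0.08), with H1 just under the lowest DMSO library.

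Sc5d, the desaturase before Dhcr7, was at 60.5, 61.0 and 62.8 CPM in D1 to D3 and at 58.1, 52.7 and 53.4 CPM in H1 to H3 (-0.17 ± 0.06). Hmgcs1 was at 165.2, 161.9 and 168.0 CPM against 162.6, 130.4 and 115.6 CPM (-0.28 ± 0.12), and Fdft1 at 80.8, 81.3 and 83.5 CPM against 80.7, 65.8 and 60.9 CPM (-0.25 ± 0.11). In both genes H1 was inside the DMSO range or at its edge, and H2 and H3 were under it. Fdps was at 60.6, 49.9 and 45.5 CPM against 51.5, 41.1 and 35.6 CPM (-0.29 ± 0.16). Hsd17b7, a sterol ketoreductase, was at 11.8, 13.3 and 15.7 CPM against 12.0, 11.5 and 8.7 CPM (-0.34 ± 0.17), with D3 the highest and H3 the lowest library. Leaving out 1 library at a time kept these values negative but moved them, from -0.43 to -0.17 for Hmgcs1, -0.37 to -0.16 for Fdft1, -0.44 to -0.16 for Fdps and -0.43 to -0.21 for Hsd17b7. The lowest values came without H1 and the highest without H3, except that of Fdps, which came without D1.

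D3, the DMSO library of the same batch, was below the mean of D1 and D2 in 7 of the 18 synthesis enzymes, Mvk, Mvd, Fdps and Idi1 among them. In 12 of the 18 synthesis enzymes H2 and H3 were below the other 4 rd10 libraries, beside 9.53% of all genes. In 15 of 18 they were below D3, beside 42.1% of all genes. Averaged over the 18 enzymes, the difference from W1 to W3 in log2 CPM was -0.10, -0.12 and -0.09 in D1 to D3, -0.13 in H1, -0.29 in H2 and -0.38 in H3. Libraries W1 to W3 ranged from -0.02 to 0.03 and W4 was at 0.02. H3 and H2 were thus the 2 lowest libraries by this mean, while 3 enzymes, Mvk, Mvd and Ebp, exceeded their D3 level in both, beside 42.9% of all genes.

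Within batch 1, H1 minus the mean of D1 and D2 had a median of -0.03 in log2 CPM over the 18 enzymes, with 13 of 18 below 0. Within batch 2, the mean of H2 and H3 minus D3 had a median of -0.26, with 15 of 18 below 0. Over all genes these medians were -0.0047 and -0.00056, with 51.9% and 50.1% below 0. The values were -0.07 and -0.64 for Nsdhl, -0.01 and -0.45 for Hmgcs1, -0.01 and -0.40 for Fdft1, -0.06 and -0.65 for Hsd17b7 and -0.22 and -0.27 for Idi1. These 5 genes were picked among enzymes with lower values in H2 and H3, and all had negative values in both batches. In batch 1 the values of Hmgcs1 and Fdft1 were close to the median of all genes. Lss (0.08 and -0.40), Pmvk (0.16 and -0.24) and Tm7sf2 (0.12 and -0.20) changed sign between the batches, as did Ebp (-0.05 and 0.06). Mvk (0.07 and 0.30) and Mvd (0.04 and 0.23) had positive values in both. Each batch had 1 library on one side, so these differences, and the difference between batches, have no test of their own. In log2 fold change by edgeR, batch 2 minus batch 1 was -0.58 for Nsdhl, -0.44 for Hmgcs1 and -0.40 for Fdft1. It was -0.58 for Hsd17b7 and -0.05 for Idi1.

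The test of whether the halofantrine effect differed between batches called 0.419% of 11701 genes and 0 members, the smallest adjusted p being 0.0525 for Srebf1. That fit leaves 2 residual degrees of freedom. At an unadjusted p under 0.05 it gave 7 members higher in batch 2 (Srebf1, Srebf2, Scap, Abca1, Abcg1, Apoe and Nr1h2), beside 12.2% of all genes. It gave 6 lower (Acat2, Hmgcs1, Pmvk, Fdft1, Lss and Nsdhl), beside 6.22% of all genes. With batch as a term in the halofantrine fit, 0 members were called. At an unadjusted p under 0.05, 7 were higher (Srebf1, Srebf2, Scap, Abcg1, Apoe, Nr1h2 and Cyp46a1) beside 10.1% of all genes, and 3 lower (Idi1, Nsdhl and Sc5d) beside 6.56%.

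**Figure D4:**
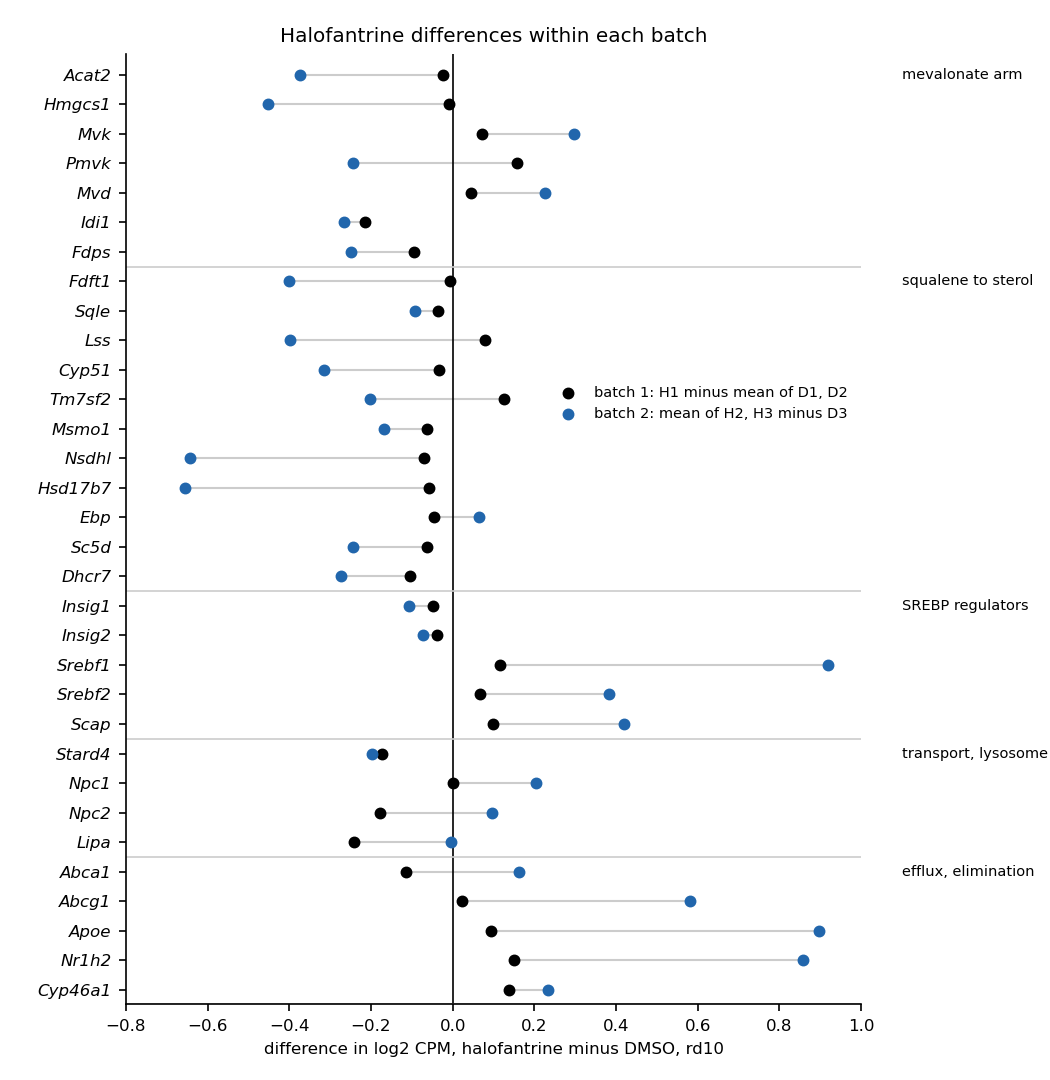
Difference in log2 CPM between halofantrine and DMSO in rd10 for each member (rows, by role), within batch 1 (black, H1 minus the mean of D1 and D2) and within batch 2 (blue, mean of H2 and H3 minus D3). Most synthesis enzymes lie left of 0 in batch 2, and Srebf1, Apoe, Nr1h2 and Abcg1 lie farthest right in batch 2, where the single DMSO library is D3.

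Srebf1, Apoe, Nr1h2 and Abcg1, the 4 members with the highest differences in batch 2, were also low in D3, the library that enters both values. Srebf1 was at 44.5 CPM in D3, against 90.9 and 96.7 CPM in the other DMSO libraries and 79.9 to 101.6 CPM under halofantrine. Nr1h2 was at 29.1 CPM in D3, against 43.4 and 47.4 CPM and 50.4 to 53.1 CPM. Apoe was at 595 CPM, against 786 and 1060 CPM and 974 to 1150 CPM, and its log2 fold change for halofantrine was 0.38 ± 0.19. Abcg1 was at 55.5 CPM in D3 and at 79.1, 79.2, 80.4, 87.7 and 78.9 CPM in the other rd10 libraries. Insig1, Fdps, Stard4 and Idi1 were lower in D3 than in D1 and D2 as well, by log2 CPM differences of -0.29, -0.27, -0.20 and -0.15, and were lower again in H2 and H3 than in D3 (-0.11, -0.25, -0.20 and -0.27).

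GC content differed among the genes low in D3. The transcripts of Apoe, Nr1h2, Srebf1 and Scap held 60.9%, 60.4%, 59.2% and 59.0% GC, between percentiles 94.1 and 97.9 of all genes, while those of Abcg1, Fdps, Insig1 and Stard4 held 52.8%, 52.2%, 48.0% and 44.0%. Across 31 members, the deviation of D3 from D1 and D2 had a Spearman rho of -0.592 with GC content, and across 11479 genes it was -0.412, as a description over genes of the same libraries. Of the 7 members with 43.4% to 45.8% GC, Hmgcs1, Sc5d, Hsd17b7 and Nsdhl were higher in D3 than in the mean of D1 and D2, while Stard4 (-0.20 in log2 CPM), Lipa (-0.12) and Msmo1 (-0.04) were lower. Of the 9 members with 56.0% to 60.9% GC, 8 were lower in D3 than in the mean of D1 and D2, and Pmvk was higher. The part of GC content in the levels of D3 was not tested. Without D3, the log2 fold change for halofantrine turned from positive to negative for Srebf1 (-0.06), Srebf2 (-0.17), Abca1 (-0.0074), Mvk (-0.02) and Mvd (-0.05). For Pmvk it turned from negative to positive (0.08). It stayed positive for Apoe, Nr1h2, Abcg1 and Scap, whose lowest values over all left-out libraries were 0.21, 0.20, 0.06 and 0.05.

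Batch itself was tested within rd10 with treatment as a term. It called 2 members lower in batch 2, Srebf2 (log2 difference -0.54 ± 0.08, adjusted p = 0.0189) and Insig1 (-0.32 ± 0.06, adjusted p = 0.0392), beside 1.55% of genes. It called 0 members higher, beside 3.09% of genes. Both calls depended on single libraries, since 0 members were called without D2, D3 or H3 and 7 without H1. Insig1 was at 96.6, 93.4 and 91.8 CPM in D1, D2 and H1 and at 77.8, 76.2 and 68.4 CPM in D3, H2 and H3. No synthesis enzyme was called for batch, while 12 of 12 rod markers were called higher in batch 2 (median 1.20). Rod marker RNA thus moved with batch, and its part in the levels of H2 and H3 was not tested.

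Other markers also differed between the halofantrine libraries. The summed levels of 9 cone markers were 1500, 2089 and 1971 CPM in H1 to H3 and 1462, 1592 and 1765 CPM in D1 to D3, so that H2 and H3 were the 2 highest of the rd10 libraries. The summed levels of 3 measured blood markers were 11.8, 96.5 and 79.6 CPM in H1 to H3 and 15.5 to 30.8 CPM in rd10 DMSO. Of 6 measured RPE markers, all 6 had lower values under halofantrine (median -0.76, 0 called), with sums of 233, 132 and 152 CPM in H1 to H3 and 164 to 487 CPM in D1 to D3. The Muller glia sums were 6213 to 6736 CPM under halofantrine and 5866 to 6741 CPM under DMSO, which overlapped. The part of these markers in the synthesis levels was not tested.

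The halofantrine libraries were also set against WT, a comparison that shares its WT libraries with the first. As labelled, edgeR called 0 members and 0.00855% of 11699 genes (1 gene). At an unadjusted p under 0.05, 2 members were higher, beside 13.6% of all genes, and 12 were lower, beside 21.1%. Limma-voom called 0 members, and DESeq2 called 9 members and 19% of all genes. Without W4, 22 members were called, 7 higher beside 35.7% of genes and 15 lower beside 36.2%. From squalene to sterols 8 of 11 enzymes were called lower and in the mevalonate arm 4 of 7. H2 and H3 were in batch 2, as was only D3 of the rd10 DMSO libraries and no WT library. Batch thus weighs more on this comparison than on that of rd10 DMSO with WT, and its part was not tested.

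Side by side without W4, the log2 fold change against WT for rd10 DMSO and then for rd10 with halofantrine was -0.04 and -0.33 for Hmgcs1, -0.20 and -0.51 for Idi1, and -0.04 and -0.29 for Fdft1. It was -0.27 and -0.50 for Dhcr7, -0.07 and -0.42 for Hsd17b7, and 0.12 and -0.28 for Nsdhl, which was not called in either. As labelled, the values with halofantrine were -0.35, -0.55, -0.31, -0.45, -0.44 and -0.31 in the same order of genes, with adjusted p of 0.135 or more. Halofantrine against DMSO, the test of these differences, called none of the 6. These 6 were picked among enzymes with lower values under halofantrine. Without W4, Mvd (-0.45 and -0.42), Mvk (0.07 and 0.14) and Ebp (-0.11 and -0.10) had higher values with halofantrine than with DMSO. Under scaling by library size without W4 (chosen after seeing the data), which moved the median of all genes to 0.19, 16 members were called. Of these, 12 were higher, beside 51% of all genes, and 4 were lower (Idi1, Msmo1, Dhcr7 and Abcg1), beside 20.9%.

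At the level of transcripts, the estimated counts matched named transcripts for 31 of the members, while those of Idi1 were matched only in part and are not given. Npc2 showed the plainest change in make-up. The protein-coding transcript Npc2-201 held 54.6%, 66.7% and 63.0% of the Npc2 counts in W1 to W3, 75.1% in W4 and 73.7% to 79.9% in the 6 rd10 libraries. The retained-intron transcript Npc2-203 held 38.8%, 26.0% and 33.2% in W1 to W3, 21.9% in W4 and 17.1% to 23.5% in rd10. The ranges of W1 to W3 and rd10 did not overlap for either transcript, and no test was run. For Hmgcs1, the leading protein-coding transcript held 73.0% to 83.6% of the counts in all 10 libraries.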

How the data were processed

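Retinal RNA was sequenced as 10 stranded libraries. The authors used Kallisto and tximport, with transcripts of Ensembl 115 (mouse, GRCm39). They deposited estimated counts per gene (11702 genes) and per transcript, and 51.4% of the gene counts equalled their rounded value exactly (tolerance 0). The authors' deposited normalized values hold these counts after division by a library factor, and this scaled signal entered 1 alternative only. Their deposited table of the halofantrine comparison (log2 fold changes, mean expression, t statistics, p-values and log odds) was not used.

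Estimated counts were rounded, filtered by filterByExpr, scaled by TMM and tested by edgeR 4.0.16 (quasi-likelihood, Benjamini-Hochberg over all genes tested, threshold 0.05) in R 4.3.3. A gene is called where its adjusted p is under 0.05. CPM were scaled over all 10 libraries, and log2 CPM used a prior count of 2. Rounding changed library totals by under 0.001%. Chi-square per gene between libraries of 1 group was 4.48 to 431, so each library counted as a sample of its own. The labels do not state that each library came from its own animal, so p-values measure the spread between libraries, which may be technical. Alternatives were DESeq2 1.42.0, limma-voom (limma 3.58.1), library-size scaling, no filter, all 10 libraries, a batch term, the authors' values (pseudocount 1) and leaving out each library. The fits were also run on simulated counts with known changes. The simulation held no batch effect and no library set apart like W4 or D3, so it cannot speak to those limits. Symbols matched 11492 gene identifiers. Transcript names, length and GC came from GENCODE M21, and promoters from RefSeq (GRCm38.p6), an older build than the authors'. The members and lists were chosen with earlier results of these data known. All members are named, and of each neighbouring list the gene per direction with the smallest p among those called without W4, except 1 gene that is not reported here.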

Additional observations from a re-analysis of the deposited data

Results flagged for a closer look

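In the WT group of 4, the gap between 1 library and its nearest neighbour took up nearly the whole range of the group in 7 of the 32 members, where chance flags about 1 in 20 groups of this size. In 6 of these the library was the one labelled WT W4. The gap as a share of the range was 0.931 for Scap (low in W4), and it was 0.894 for Apoe, 0.873 for Srebf2, 0.862 for Fdft1, 0.857 for Lipa and 0.846 for Sqle (all high in W4). The seventh was Cyp51, with a share of 0.942 and W3 as the high library, at 60.0 CPM against 54.5 to 54.8 CPM in the other WT libraries. For Scap, Apoe, Srebf2 and Lipa, W4 lay on the rd10 side of W1 to W3. For Fdft1 it lay on the side away from rd10, with 89.7 CPM against at most 83.5 CPM in the 6 rd10 libraries. For Sqle W4 was at 56.0 CPM, above every other library. The others were at 45.3 to 47.0 CPM in W1 to W3, 47.2 to 48.3 CPM in rd10 DMSO and 43.5 to 46.6 CPM under halofantrine. Why W4 differs from its label was not tested.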

How the results depend on the processing

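The limits of these results lie in the number of libraries, in the library labelled WT W4 and in the scaling. No paired analysis was possible because the sample numbers in the labels link no library of one group to one of another. For halofantrine against DMSO no member was called under any alternative (all genes: 3 called by DESeq2, and 0 to 7 when 1 library was left out). Leaving out libraries turned the sign of 9 members, Srebf1 (0.21 with all libraries) among them, for which the log2 fold change ranged from -0.087 to 0.066 (Npc2), -0.017 to 0.068 (Ebp), -0.020 to 0.21 (Mvk), -0.066 to 0.081 (Pmvk), -0.047 to 0.12 (Mvd), -0.055 to 0.40 (Srebf1), -0.17 to 0.15 (Srebf2), -0.016 to 0.087 (Abca1) and -0.18 to 0.054 (Tm7sf2).

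For rd10 DMSO against WT DMSO, leaving out 1 library gave 0 to 14 members and 0 to 7280 genes called, the upper values coming without W4. DESeq2 called 589 genes as labelled. Without W4, the alternatives chosen after seeing the data called 13 members and 7336 genes (DESeq2), 13 and 7388 (limma-voom), 15 and 7440 (library size) and 17 and 8460 (batch 1 alone). Leave-one-out ranges that crossed 0 were -0.12 to 0.12 (Mvk), -0.066 to 0.085 (Pmvk), -0.055 to 0.065 (Sqle), -0.13 to 0.043 (Insig1), -0.21 to 0.0030 (Hsd17b7) and -0.39 to 0.072 (Srebf1). Compared with the main fit as labelled, the sign also turned under DESeq2 as labelled (Mvk 0.011). It differed under DESeq2 without W4 (Mvk 0.072, Sqle 0.068, Insig1 0.047) and limma-voom without W4 (Mvk 0.072, Sqle 0.064, Insig1 0.043). Within batch 1 without W4 it differed for Mvk (0.17), Pmvk (-0.066), Sqle (0.061), Insig1 (0.13) and Srebf1 (0.11). Mvk, Sqle and Insig1 were positive without W4 in the main fit too.

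Scaling by library size alone raised the members' median to 0.075 as labelled and to 0.16 without W4. As labelled it turned Hmgcs1 (0.081), Mvk (0.15), Fdft1 (0.085), Sqle (0.12), Lss (0.053), Cyp51 (0.033), Tm7sf2 (0.024), Hsd17b7 (0.052), Ebp (0.062), Sc5d (0.079) and Insig1 (0.071). Without W4 it turned Hmgcs1 (0.17), Idi1 (0.011), Fdps (0.0082), Fdft1 (0.17) and Lss (0.15). It also turned Cyp51 (0.081), Hsd17b7 (0.13), Ebp (0.097), Sc5d (0.13) and Srebf1 (0.045) there. Mvk (0.27), Sqle (0.27) and Insig1 (0.25) were positive as well. These genes were already positive without W4 under TMM scaling (0.068, 0.065 and 0.043).

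For rd10 HAL against WT DMSO, DESeq2 called 9 members and 2221 genes, limma-voom 0 genes, and leaving out 1 library gave 0 to 22 members and 0 to 8408 genes. Library-size scaling without W4 gave 16 members, 8414 genes and a members' median of 0.026. For batch 2 against batch 1, DESeq2 called 4 members and 1419 genes, and leaving out 1 library gave 0 to 7 members, 91 to 2638 genes and a members' median from -0.17 to -0.076. The cause of these changes was not tested. Over all planned values, those above included, 829 kept their direction and their side of the threshold, or, for counts, stayed within 1.5 times. The sign turned in 39, which are the planned turns already covered above. Another 27 came past the threshold or rose by over 1.5 times, and 23 lost the threshold or fell by that much.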
